A study of Mus musculus with 12 samples.

Results

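Vehicle-treated back skin was followed over 3 weeks in the control channel of 12 two-colour arrays. The mice were male C57BL/6J, 8 weeks old, and from the day after shaving they received 200 µL a day of propylene glycol, ethanol and water at 5:3:2 (the vehicle control, VC) on the back. The other groups received 3% minoxidil (MXD) or 10% cell extract of Notocactus ottonis (N-CE) in place of the vehicle alone. Whole back skin was taken at 1W, 2W and 3W, and the RNA of 6 mice was pooled for each group and week. Arrays came in pairs with the dyes swapped, 1 pair for MXD against VC and 1 for N-CE against VC in each week, so the VC pool of a week was read 4 times, in Cy3 and in Cy5 on an MXD array and on an N-CE array. The VC readings are 12 of the 24 channels of the series and come from 3 of its 9 pools. They were chosen by the dye that the sample title names for the control.

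Each week is therefore 1 sample, and no test between weeks was possible. The SD given with a value is that of the 4 differences between weeks, matched on dye and array, and it covers labelling, hybridization and scanning but not the spread between mice. The 4 arrays of a week share 1 slide, so week and slide cannot be told apart. The mice of 1W, 2W and 3W also differ in age and in days since shaving, which cannot be told apart from time on vehicle.

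Hair follicles pass through growth (anagen), regression (catagen) and rest (telogen). In anagen, matrix cells of the hair bulb differentiate into a shaft built of hair keratins, which are cross-linked by keratin-associated proteins, and into an inner root sheath hardened by trichohyalin and citrullination. Melanocytes of the bulb make pigment only in anagen, and the dermal papilla below the matrix sends signals of the WNT, BMP and FGF families. In bulk skin, more cells of a type and more RNA per cell cannot be told apart.

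Between 57% and 69.6% of the spots were well above background in a VC reading, and the median processed signal lay between 78.9 and 149 (108 to 149 at 2W and at most 102 in the other weeks). A probe was analysed when all 4 readings of at least 1 week were well above background, which left 25608 of 41174 probes (62.2%) under 17121 gene names. Log2 signals were quantile normalized within each dye, and a week's level is the mean over its dyes. A probe is said to have risen or fallen when it differed by at least 2-fold and, in each dye, both readings of one week lay above both of the other. The markers of skin were bright throughout, as seen in all 12 readings of Krt5, Krt14, Krt1 and Krt10 (epidermis), Col1a1 (dermis), Adipoq (fat) and Acta1 (muscle). The neutrophil gene Ngp, the liver gene Apoa1 and the brain gene Gfap were well above background in 0 of 12 readings, while albumin (Alb) passed in all 12.

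At 2W, 949 probes had risen and 302 had fallen against 1W, which is 3.71% and 1.18% of the probes tested. From 2W to 3W, 426 probes (1.66%) rose and 754 (2.94%) fell. Over the whole span from 1W to 3W, 971 (3.79%) rose and 961 (3.75%) fell. The normexp background correction, with an offset of 50, lowers differences of dim probes, and 79 of the 249 called differences of named genes were under 2-fold with it. The normexp value is given below for only part of these. Rises made up 75.9%, 36.1% and 50.3% of the calls, and under the normexp background correction 88.3%, 27.3% and 66.6%. Without the Cy5 reading of 2W on the MXD array 1166 probes fell from 2W to 3W, and without the Cy5 reading of 3W on the N-CE array 1208. Leaving out a reading also drops a condition of the call rule, so part of such an increase can come from the rule. The 3 comparisons share pools pairwise and are not independent. The median difference over all probes was -0.08, 0.04 and -0.04 on the log2 scale.

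Pearson correlations between readings, across probes, were 0.98 to 0.995 within a week, 0.96 to 0.986 between 1W and 2W, 0.951 to 0.978 between 2W and 3W and 0.955 to 0.969 between 1W and 3W. The ranges overlap: the Cy5 reading of 2W on the MXD array correlated at 0.986 with that of 1W, and at 0.985 and 0.982 with the Cy5 and Cy3 readings of its own pool on the N-CE arrays. When the MXD arrays were set against the N-CE arrays within a pool, 0.324% of probes differed by 2-fold at 1W. The share was 2.21% for the 2W pool and 2.74% for the 3W pool. The difference of 2W from 1W passed 2-fold at 3.4% of probes on the MXD arrays and at 9.86% on the N-CE arrays. On the MXD arrays it was thus little above the 2.21% found within the 2W pool. From 1W to 3W the shares were 8.45% and 11.2%.

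**Figure D1:**
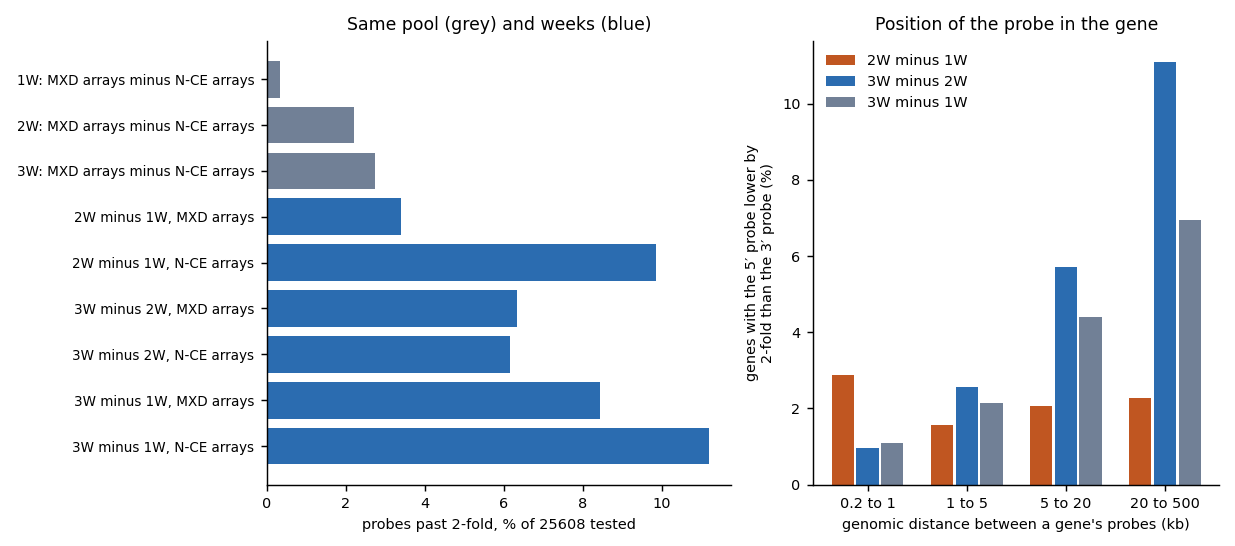
Left, share of the 25608 tested probes (%) past 2-fold between the MXD arrays and the N-CE arrays when both read the same VC pool (grey) and between weeks within one kind of array (blue). Right, share of genes (%) whose 5′-most probe fell by 2-fold more than the 3′-most probe, by the distance between the probes in kb; at 20 to 500 kb it was 11.1% from 2W to 3W and 2.28% from 1W to 2W.

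Hair shaft keratins, the structural proteins of the cortex and cuticle of the hair, rose between 1W and 2W and were higher again at 3W. Of the 12 on the array, 11 were measured (Krt35 was not), and 9 of the 11 rose by 2W with a median difference of 1.58 ± 0.34 (SD over 4 readings). From 2W to 3W, 3 rose (Krt32, Krt36 and Krt84), with a median of 0.86 ± 0.22. At 3W, 10 of 11 were higher than at 1W, with a median of 2.27 ± 0.11 beside -0.04 over all probes. The exception was Krt33a, at 0.80 ± 0.49.

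Krt84, a keratin of the hair cuticle and the tongue, showed the largest rise from 1W to 3W among the named genes that were above background in both weeks. Its Cy3 readings (MXD array, then N-CE array, here and below) were 7.21 and 7.29 at 1W, then 12.19 and 11.68 at 2W, then 13.34 and 12.90 at 3W. In Cy5 they were 7.52 and 7.77, then 12.48 and 11.97, then 13.38 and 12.80. No reading of one week overlapped with those of another in its dye, and the rise came to 24.8-fold at 2W and 50.6-fold at 3W. The probe lies on mm9 at chr15:101355699-101355758 on the minus strand, and its 60 bases are shown because the largest rise was read with it:
Krt84: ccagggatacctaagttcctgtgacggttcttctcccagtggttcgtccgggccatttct

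The other type II hair keratins followed. Krt86 rose by 2.59 ± 0.29 and Krt87 by 2.70 ± 0.21 at 2W, and they stood 3.53 ± 0.14 and 3.37 ± 0.19 above 1W at 3W. Krt85, which is made in the matrix and early cortex, gave Cy3 readings of 12.54 and 12.51 at 1W, then 13.90 and 13.54 at 2W, then 14.76 and 14.88 at 3W. Its total rise was 4.81-fold, with no overlap between weeks. Krt82 of the cuticle rose by 1.08 ± 0.19 and then stood 1.70 ± 0.27 above 1W.

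Among the type I hair keratins, Krt33b rose from a level of 13.13 at 1W to 15.15 at 2W and 16.01 at 3W. A second Krt33b probe, which is dimmer, rose by 3.56 ± 0.25 from 1W to 3W, against 2.88 ± 0.03 for the brighter one. Krt34 and Krt31 were higher at 3W by 2.76 ± 0.15 and 2.03 ± 0.26. Krt36 rose in both steps, by 1.04 ± 0.28 and 1.08 ± 0.19. Krt32 of the cuticle differed by 0.57 ± 0.15 at 2W, which is under 2-fold, and rose by 1.10 ± 0.25 from 2W to 3W.

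**Figure D2:**
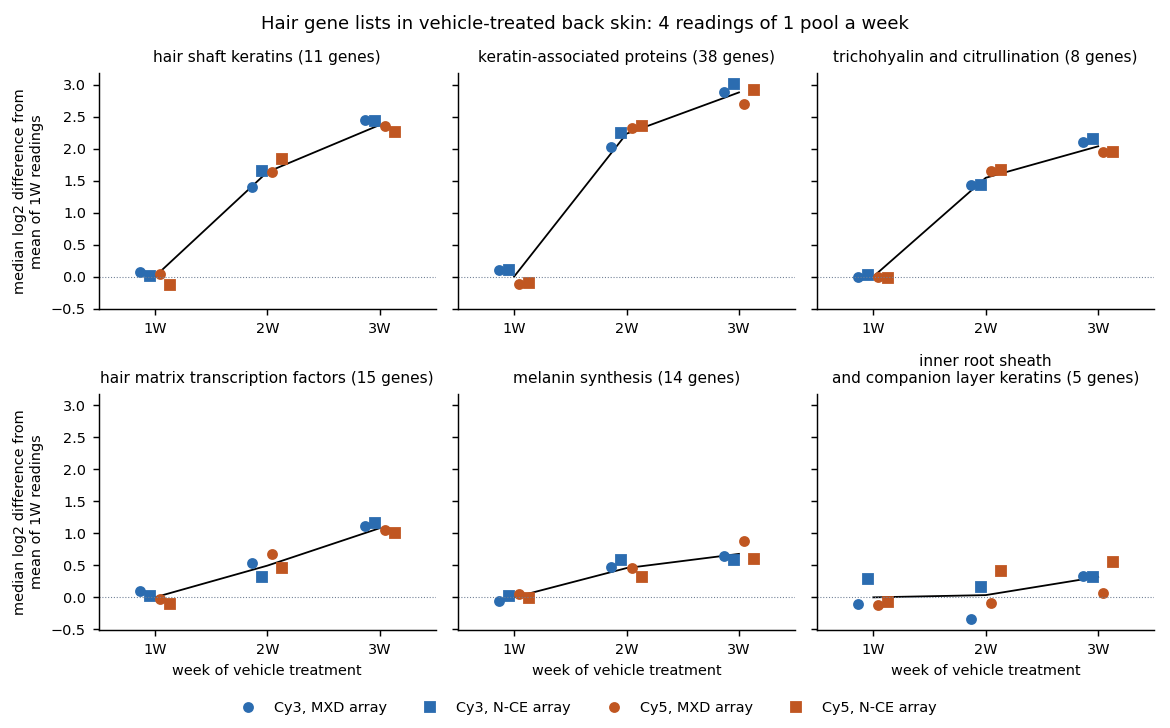
Median log2 difference of the genes of 6 hair gene lists from the mean of the 1W readings (vertical axis) by week (horizontal axis); each point is 1 of the 4 readings of a VC pool, the symbols give dye and array, and the line joins the means. The readings of different weeks are separate for the shaft keratins, keratin-associated proteins and trichohyalin group, and overlap for the inner root sheath keratins.

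The keratin-associated proteins, which form the matrix between keratin filaments in the shaft, rose almost as a whole. Of 43 on the array 38 were measured, 35 rose from 1W to 2W and all 38 lay above 0, with a median of 2.11 ± 0.33. From 2W to 3W the median was 0.67 ± 0.23, all 38 lay above 0, and 4 rose (Krtap31-1, Krtap31-2, Krtap4-13 and Krtap9-1). From 1W to 3W, 36 rose with a median of 2.90 ± 0.12. None fell in any of the comparisons. Members of this family have closely similar sequences, so a probe may also read its relatives, and the number of genes that changed may be smaller than these counts.

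The size of the change differed among groups of this family, which were formed after the values were seen. The 11 measured members of the Krtap6, 7, 8, 19, 21 and 22 groups, which are rich in glycine and tyrosine, differed by a median of 2.90 at 2W (1.89 to 4.67) and by 0.50 from 2W to 3W. The 10 measured members of the Krtap4, 5 and 9 groups, which are rich in cysteine, differed by a median of 1.27 at 2W (0.12 to 2.03) and by 0.88 from 2W to 3W. By these medians both sets differed more in the first step than in the second, the former by a wider margin. The smaller 2W median of the Krtap4, 5 and 9 groups was not shared by the remaining groups that were formed. The 5 measured members of the Krtap1 to 3 groups differed by a median of 2.87 at 2W (1.78 to 3.24). For the 2 members of the Krtap31 group it was 3.64. No test of the difference between the groups was made. Many cysteine-rich members were already bright at 1W (Krtap4-6 at 15.28 and Krtap5-1 at 14.99).

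Krtap19-2 gave Cy3 readings of 9.82 and 9.78 at 1W, then 14.40 and 14.68 at 2W, then 14.53 and 14.77 at 3W. Its Cy5 readings were 10.07 and 9.94, then 14.60 and 14.62, then 14.87 and 14.92. The rise was 25.5-fold by 2W, whereas the 2W and 3W readings overlapped in Cy3. Krtap31-1 rose in both steps, with Cy3 readings of 9.26 and 9.39, then 12.85 and 12.76, then 14.55 and 14.36. Its difference from 1W to 3W was 34-fold. The smallest differences in the family at 3W were those of Krtap5-2, 0.86 ± 0.23, and Krtap5-3, 0.99 ± 0.49.

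**Figure D3:**
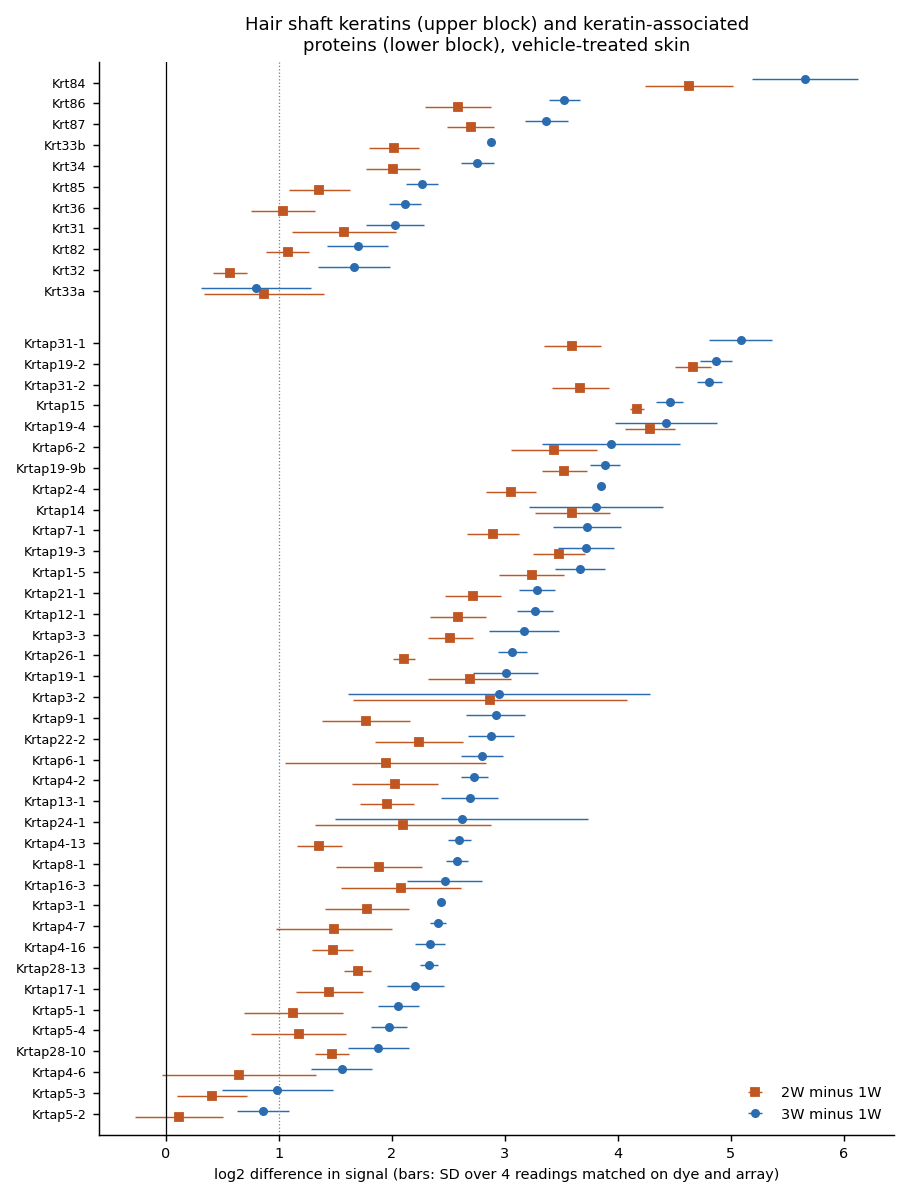
Log2 difference in signal from 1W (horizontal axis) at 2W (squares) and 3W (circles) for 11 hair shaft keratins and 38 keratin-associated proteins, 1 gene a row; bars are the SD over 4 readings matched on dye and array, and the dotted line marks 2-fold. All points lie above 0, from 0.12 for Krtap5-2 at 2W to 5.66 for Krt84 at 3W.

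Enzymes that harden the sheath and shaft rose as well. All 8 genes of the trichohyalin and citrullination list were measured, 5 rose at 2W (median 1.54 ± 0.08) and 6 stood higher at 3W than at 1W (2.25 ± 0.15). With normexp the latter median was 1.53. Padi1, Padi3 and Padi4, which convert arginine to citrulline, rose by 2.39 ± 0.17, 2.31 ± 0.10 and 2.25 ± 0.05 from 1W to 3W, while Padi2 differed by -0.66 ± 0.36. The transglutaminase Tgm3, which cross-links trichohyalin, rose by 2.24 ± 0.09, and S100a3, a citrullinated protein of the hair cuticle, by 1.14 ± 0.12. Tchhl1 was well above background in 1 of 4 readings at 1W and in all 8 later ones.

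The 2 probes of Tchh, trichohyalin itself, gave different results. The brighter one stood at 15.39, 15.33 and 15.33 at 1W, 2W and 3W. The dimmer one rose from 8.43 to 10.48 and 10.57. The brightest probe represents a gene here, so Tchh counts as not called.

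The inner root sheath and companion layer keratins did not share this course. The median of the 5 measured genes was 0.01 ± 0.36 at 2W and 0.20 ± 0.26 at 3W against 1W, and only Krt75 of the companion layer rose by 3W (1.07 ± 0.18). Krt71, Krt25 and Krt27 of the inner root sheath stood between 15.14 and 16.97 at 1W and differed by -0.17 ± 0.37, 0.01 ± 0.07 and 0.20 ± 0.38 at 3W.

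Transcription factors of the hair matrix were higher at 3W. All 15 of the list were measured: 2 rose at 2W (Foxn1 and Msx2), 1 from 2W to 3W (Msx1), and 9 from 1W to 3W, where the median was 1.06 ± 0.13. Foxn1, the factor lost in nude mice, gave Cy3 readings of 9.58 and 9.55 at 1W, then 10.75 and 10.25 at 2W, then 11.53 and 11.40 at 3W. Its rise from 1W to 3W was 1.71 ± 0.30. Hoxc13, which controls hair keratin genes, differed by 0.90 ± 0.39 at 2W and by 1.58 ± 0.09 at 3W.

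Msx2 rose by 1.63 ± 0.13 from 1W to 3W, Foxe1 by 1.53 ± 0.06, Dlx3 by 1.45 ± 0.24, Dlx4 by 1.26 ± 0.21, and Lef1, the partner of β-catenin in WNT signalling, by 1.14 ± 0.25. Foxq1 and Ovol1 passed narrowly, at 1.06 ± 0.45 and 1.02 ± 0.18. Msx1 stood at 9.37, 8.44 and 9.46 in the 3 weeks and so was lowest at 2W. Gata3, a regulator of the inner root sheath, was not called and differed by 0.44 ± 0.29.

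Genes of melanin synthesis shifted less than the shaft genes. Of 16 genes 14 were measured, and their median was 0.52 ± 0.15 at 2W, 0.15 ± 0.16 from 2W to 3W and 0.66 ± 0.11 over both steps. At 3W, 3 genes stood called above 1W, Trpm1 (1.01 ± 0.18), Slc7a11 (1.23 ± 0.23) and Slc24a4 (2.28 ± 0.72), and 12 of 14 lay above 0. Over all probes 3.79% rose in that comparison. With normexp Trpm1, Slc7a11 and Slc24a4 differed by 0.96, 0.72 and 0.70, all under 2-fold. The Slc24a4 probe was well above background in 1 of 4 readings at 1W, and the other probe of Slc24a4 was above background at 3W alone. The enzymes and melanosome proteins were each below the 2-fold limit, with Tyrp1 at 0.85 ± 0.12, Pmel at 0.88 ± 0.11 and Dct at 0.54 ± 0.07. Tyr, the rate-limiting enzyme, was above background in 1 of 12 readings and is not given a difference.

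Trpm1, a melanocyte channel, gave Cy3 readings of 10.13 and 10.20 at 1W, then 11.34 and 11.32 at 2W, then 11.22 and 11.01 at 3W. The 1W readings lay below all later ones, and those of 2W and 3W overlapped in Cy5. Slc7a11, a cystine transporter that affects the type of pigment, had 3 probes, which differed by 1.77 ± 0.19, 3.38 ± 0.21 and 1.23 ± 0.23 from 1W to 3W. The 9 measured regulators of melanocytes had a median of 0.19 ± 0.05 at 3W, and none was called in any comparison.

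The promoters of pigment genes are known for a motif read by the factor MITF, whose core TCATGTG was looked for on both strands of the 250 bases before the RefSeq start (GRCm38.p6). It was found at 5 of the 10 list genes with a promoter in the table (Dct, Slc24a5, Slc7a11, Trpm1 and Tyrp1) and at 3.25% of all 32851 promoters. The other motif searched, CACGTG, was found at 4 of these 10, at 0 of 7 hair shaft keratins, at 5 of 15 genes of the circadian clock and at 6.02% of all promoters. A match of letters is no evidence of binding. Trpm1, which rose, and Tyrp1, which did not pass 2-fold, are shown with the motif in capitals. It starts 142 bases before the start of Trpm1 (window chr7:64153585-64153834, plus strand) and 47 bases before that of Tyrp1 (chr4:80833963-80834212, plus strand).
Trpm1: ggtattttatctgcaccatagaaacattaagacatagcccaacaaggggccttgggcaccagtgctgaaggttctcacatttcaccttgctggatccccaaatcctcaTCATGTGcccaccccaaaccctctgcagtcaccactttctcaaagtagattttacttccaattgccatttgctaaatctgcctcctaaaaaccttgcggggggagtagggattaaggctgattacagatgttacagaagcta
Tyrp1: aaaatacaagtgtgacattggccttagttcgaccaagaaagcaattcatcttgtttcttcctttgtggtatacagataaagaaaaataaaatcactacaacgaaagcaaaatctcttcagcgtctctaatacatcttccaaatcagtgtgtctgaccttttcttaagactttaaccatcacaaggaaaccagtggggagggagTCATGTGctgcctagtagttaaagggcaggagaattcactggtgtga

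Among the signals of the follicle, members of one family moved in opposite directions. Of 18 measured fibroblast growth factors and receptors, 1 rose at 2W, where 3.71% of all probes rose. From 1W to 3W, 2 rose and 2 fell, beside 3.79% and 3.75% of all probes. Fgf5, which is known to end anagen and limit hair length, gave Cy3 readings of 7.26 and 7.16 at 1W, then 10.19 and 9.99 at 2W, then 10.57 and 10.41 at 3W. In Cy5 they were 7.47 and 7.41, then 9.94 and 9.78, then 10.73 and 11.10. The rise was 6.26-fold at 2W and 10.4-fold at 3W, with every later reading above every 1W reading.

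Fgf22 read 7.47 and 7.46 in Cy3 at 1W, then 8.30 and 7.92 at 2W, then 9.53 and 9.57 at 3W, a total rise of 4.05-fold made mainly in the second step. Fgf18, which bulge cells make in telogen, fell. Its levels were 10.64, 10.05 and 9.03, and the fall of 1.61 ± 0.18 from 1W to 3W came mainly after 2W. The receptor Fgfr4 fell by 1.12 ± 0.23 from 1W to 3W. The median of the list was -0.29 ± 0.16 at 2W and 0.46 ± 0.05 from 2W to 3W.

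In the BMP pathway, which restrains anagen and guides matrix differentiation, all 21 genes were measured. From 1W to 3W, 4 rose and 1 fell, beside 3.79% and 3.75% of all probes, and the median was 0.36 ± 0.05. The pseudoreceptor Bambi rose by 1.81 ± 0.25, and the 2 steps were differences of 0.87 and 0.94. The inhibitory Smad6 rose by 1.23 ± 0.12 and Bmp8a by 1.05 ± 0.09. The antagonist Grem1 fell by 1.20 ± 0.15, from Cy3 readings of 10.63 and 10.67 to 9.59 and 9.41. Noggin (Nog), another antagonist, rose by 1.06 ± 0.15 at 2W and differed by 0.44 ± 0.22 between 1W and 3W. The inhibitory Smad7 was called as well, but its SD of 1.45 nearly equals its difference of 1.64.

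The WNT pathway as a list stayed near 0 (median 0.09 ± 0.13 from 1W to 3W over 33 measured genes). Nkd2 and Wnt11 rose, by 1.38 ± 0.03 and 1.10 ± 0.20, in a comparison in which 3.79% of all probes rose. Notum, a secreted WNT inhibitor, fell by 1.05 ± 0.34 at 2W and rose by 1.08 ± 0.45 after it, with 3 of 4 readings above background at 2W. Axin2 was called higher at 2W, with a large SD (1.88 ± 0.84). In the Sonic hedgehog pathway, which drives matrix growth, Hhip fell by 1.21 ± 0.64 at 2W (with normexp the difference was -0.42). The brighter probe of Ptch1 rose by 1.57 ± 0.44 and then fell by 1.59 ± 0.39, with 3 of 4 readings above background at 3W. With normexp this probe differed by 0.73 and -0.72, both under 2-fold. The other probe of Ptch1 differed by -0.52 ± 0.44 and -0.23 ± 0.50. None of the 13 genes was called from 1W to 3W, and the median was 0.05 ± 0.06.

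Dermal papilla genes had a median of -0.48 ± 0.05 at 2W and 0.33 ± 0.16 from 2W to 3W, over 20 measured genes. Corin, a protease of the papilla that affects coat colour, rose by 1.84 ± 0.26 from 1W to 3W, and Crabp1, a retinoic acid binding protein, fell by 1.30 ± 0.16. Inhba, a subunit of activin, read 9.35 and 9.18 in Cy3 at 1W, then 8.89 and 8.73 at 2W, then 10.28 and 10.41 at 3W. Its second step was thus a rise of 1.36 ± 0.25 after a difference of -0.42 ± 0.05. Of 17 genes of the stem cells and bulge, Fgf18, Ltbp1 and Nfatc1 fell from 1W to 3W (-1.01 ± 0.21 for Ltbp1 and -1.08 ± 0.18 for Nfatc1), and none rose. Over all probes 3.75% fell and 3.79% rose in that comparison.

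**Figure D4:**
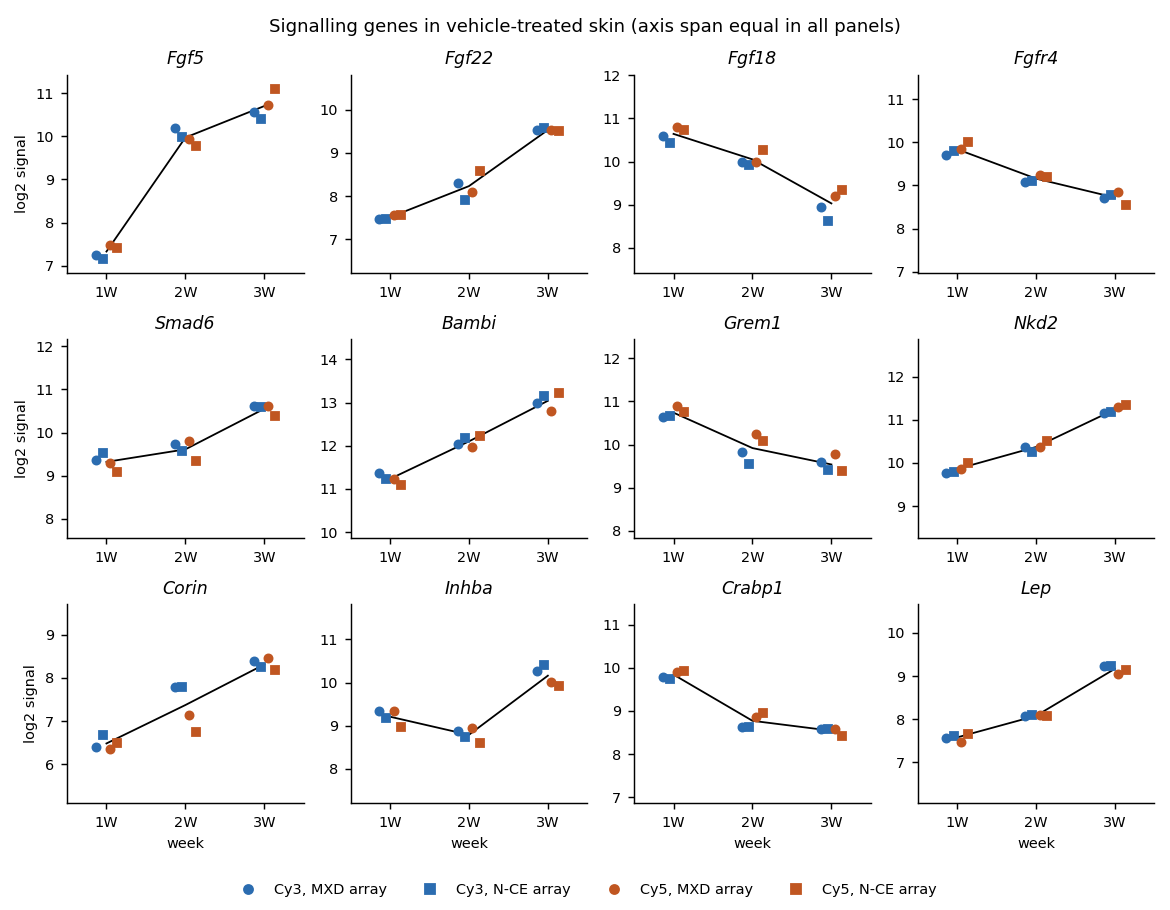
Log2 signal (vertical axis, equal span in all panels) of 12 signalling genes by week (horizontal axis); each point is 1 of the 4 readings of a VC pool, the symbols give dye and array, and the line joins the weekly levels. Fgf5 went from 7.33 to 10.70, Fgf18 from 10.64 to 9.03, and Inhba was lowest at 2W.

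Genes of cell division, which runs in the anagen matrix, shifted slightly. At 3W against 1W, 27 of 30 mitosis genes lay above 0 with a median of 0.27 ± 0.06, and 21 of 27 DNA replication genes with a median of 0.15 ± 0.10. None of either list was called in that comparison.

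Keratins and small proline-rich proteins that skin makes after wounding had a median of 0.51 ± 0.16 from 1W to 3W. Of the 14 measured genes 5 were called higher, beside 3.79% of all probes. Krt16 rose by 1.55 ± 0.16, Krt6a by 1.31 ± 0.04 and Krt6b by 1.20 ± 0.17. These keratins are also made in the companion layer of the follicle. Sprr1b rose by 2.90 ± 0.64 in the first step, and Sprr2f, not well above background in any 1W reading, was at least 7.53-fold higher at 2W and at least 12.5-fold higher at 3W. With normexp the differences of Sprr2f were smaller, at 1.15 and 1.66 on the log2 scale. The 9 basal and suprabasal keratins had a median of -0.36 ± 0.06 at 3W, 8 lay below 0, and Krt79 fell by 1.08 ± 0.16. Among them, Krt5, Krt14 and Krt10 differed by at most 0.32 from 1W to 3W, and Krt1 by -0.66.

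The cornified envelope, the barrier layer of the epidermis, had a median of 0.04 ± 0.07 at 2W and -0.45 ± 0.04 at 3W against 1W, over 24 measured genes. Filaggrin (Flg), which bundles keratin in the granular layer, fell by 1.54 ± 0.25 from 2W to 3W and by 2.06 ± 0.63 in all. Its 3W readings lay between 8.83 and 9.91 and its 1W readings between 11.06 and 11.51. Casp14, the protease that processes filaggrin, fell by 1.37 ± 0.40 at 2W. Lce3c and Lce3f, envelope genes that are turned on in injured skin, rose by 2.12 ± 0.29 and 1.45 ± 0.27 at 2W. With normexp they differed by 2.03 and 0.70, so that Lce3f was under 2-fold.

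Sebaceous lipid genes lay lower in the later weeks. The median of the 20 genes was -0.42 ± 0.12 at 2W and -0.60 ± 0.09 at 3W, with 5 called lower and 1 higher at 3W. Over all probes 3.75% fell and 3.79% rose from 1W to 3W. Scd3, a desaturase of the sebaceous gland, read 13.63 and 13.77 in Cy3 at 1W, then 11.85 and 11.86 at 2W, then 11.30 and 11.19 at 3W. Its level fell by 2.40 ± 0.19. Cidea, a lipid droplet protein, fell by 1.57 ± 0.04, Far2, which makes wax alcohols, by 1.49 ± 0.46, and Plin2 by 1.05 ± 0.07. Dgat2l6 was at least 2.69-fold lower at 3W, where no reading was well above background, but with normexp it differed by -0.59 on the log2 scale. Fads2, a desaturase, rose by 1.67 ± 0.36.

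In the fat layer, the 20 adipocyte genes had a median of -0.14 ± 0.06 at 3W, and Lep was the one called. Leptin read 7.57 and 7.62 in Cy3 at 1W, then 8.07 and 8.09 at 2W, then 9.24 and 9.24 at 3W, a 3-fold rise. Adipoq, the abundant adipokine, differed by -0.13.

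Several lists of immune and vascular cells lay below the median of all probes from the first step on. The neutrophil and acute phase list did not at 2W (0.05 ± 0.07 over 18 genes), but stood at -0.18 ± 0.19 beside -0.04 at 3W. Of its 24 genes on the array Camp, Cxcr2, Elane, Ltf, Mmp8 and Ngp were not measured, so its median does not cover these neutrophil genes. Interferon-induced genes had a median of -0.53 ± 0.02 at 2W and -0.59 ± 0.09 at 3W, and 26 of 28 were below 0 at 3W. T cell and NK cell genes stood at -0.42 ± 0.03 and -0.54 ± 0.11, macrophage genes at -0.44 ± 0.08 and -0.44 ± 0.06, and antigen presentation genes at -0.54 ± 0.18 and -0.33 ± 0.07. All 19 endothelial genes were below 0 at both weeks (-0.40 ± 0.07 and -0.58 ± 0.11). Few single genes of these lists were called lower from 1W to 3W, where 3.75% of all probes fell. The falls were 2 of 28 interferon-induced, 2 of 17 antigen presentation, 1 of 19 T cell and NK cell and 1 of 19 endothelial genes. In the chemokine and cytokine list, with a median of -0.36 ± 0.04, 5 of 37 genes fell and 1 rose. The T cell gene was Ifng (-1.34 ± 0.27, above background in 1 of 4 readings at 3W), and the endothelial gene the VEGF receptor Kdr (-1.11 ± 0.19). With normexp Ifng differed by -0.48.

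The interferon-γ targets Cxcl9 and Cxcl10, which attract T cells, fell in the first step, by 1.51 ± 0.37 and 1.19 ± 0.25, and differed by 0.05 ± 0.16 and 0.04 ± 0.24 in the second. One T cell gene went the other way. Cd4 was below background in all 1W readings and at least 6.84-fold higher at 2W, with 2W readings between 6.30 and 8.87, whereas Cd3e differed by -0.61 and Cd3d by -0.15 at 2W. With normexp the difference of Cd4 at 2W was smaller, at 1.18 on the log2 scale. The calprotectin subunit S100a8 rose by 1.46 ± 0.25 from 1W to 3W, while Stfa3 fell by 1.30 ± 0.27.

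Skeletal muscle lies beneath the skin and enters whole back skin. Its fast and general genes had, at 3W against 1W, a median of -0.50 ± 0.08 over 30 genes. Of these 5 were called lower, among them Sln (-2.03 ± 0.15), a regulator of the calcium pump. Over all probes 1.18% fell from 1W to 2W and 3.75% from 1W to 3W. Of the 10 slow muscle genes, 3 fell at 2W, while 6 lay above 0 and the median was 0.07 ± 0.15. At 3W against 1W the same number fell, and Tnni1 rose (1.15 ± 0.60, but 0.48 with normexp). The median of the slow muscle genes was then -0.44 ± 0.30, or -0.73 to 0.07 over the settings tried. Myh7, slow myosin, read 8.61, 8.54, 8.63 and 8.46 at 1W and was not well above background in any later reading, at least 17.2-fold lower at 2W and at least 13.7-fold lower at 3W (with normexp the difference at 3W was -1.94 on the log2 scale). Myl2, its light chain, was at least 7.43-fold and 5.79-fold lower, and Tnnt1 fell by 1.86 ± 0.35 at 2W. With normexp Myl2 differed by -1.2 and -1.11 on the log2 scale. Acta1 differed by 0.03 at 2W and -0.19 at 3W. Whether the amount or kind of muscle taken with the skin moved other lists was not tested.

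Smooth muscle genes had a median of -0.54 ± 0.10 at 3W with Cnn1 (-1.47 ± 0.25) and Myh11 (-1.25 ± 0.17) called lower. In the matrix, elastin (Eln) fell by 1.44 ± 0.49 at 2W. The collagen list stood at -0.38 ± 0.04 at 3W. Mmp11, a protease of the stroma, was lowest at 2W and rose by 1.68 ± 0.13 from 2W to 3W.

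Genes of red cells and iron gave single large changes. Ahsp, the chaperone of α-globin, read 6.89, 6.97, 7.06 and 7.19 at 1W, 9.94, 9.81, 9.76 and 9.80 at 2W, and between 10.32 and 10.60 at 3W. It rose 10.7-fold while Alas2 and Hba-a2, which mature red cells hold, fell by 1.11 ± 0.24 and 1.07 ± 0.25 at 2W. Slc4a1 rose by 1.85 ± 0.41 from 1W to 3W. Hamp2, a hepcidin, fell by 1.78 ± 0.17 at 2W. The other hepcidin, Hamp, fell by 2.56 at 2W and rose by 1.55 from 2W to 3W, but with normexp it differed by -0.75 and 0.33. Slc40a1, an iron exporter whose protein hepcidin degrades, rose by 1.55 ± 0.08 from 1W to 3W. A link between these genes was not tested.

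Lists included as references had few calls. From 1W to 3W the medians were -0.16 ± 0.04 for 11 housekeeping genes, 0.02 ± 0.13 for 84 ribosomal proteins and -0.06 ± 0.06 for 11 heat shock genes, and none of these genes was called. Of 83 measured subunits of oxidative phosphorylation none was called from 1W to 3W, but 72 lay below 0 and the median was -0.20 ± 0.09. In the single steps Cox7c rose by 1.65 ± 1.09 at 2W and fell by 1.84 ± 0.25 after it. Of 18 clock genes, Nfil3 rose by 3W (1.17 ± 0.16).

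**Figure D5:**
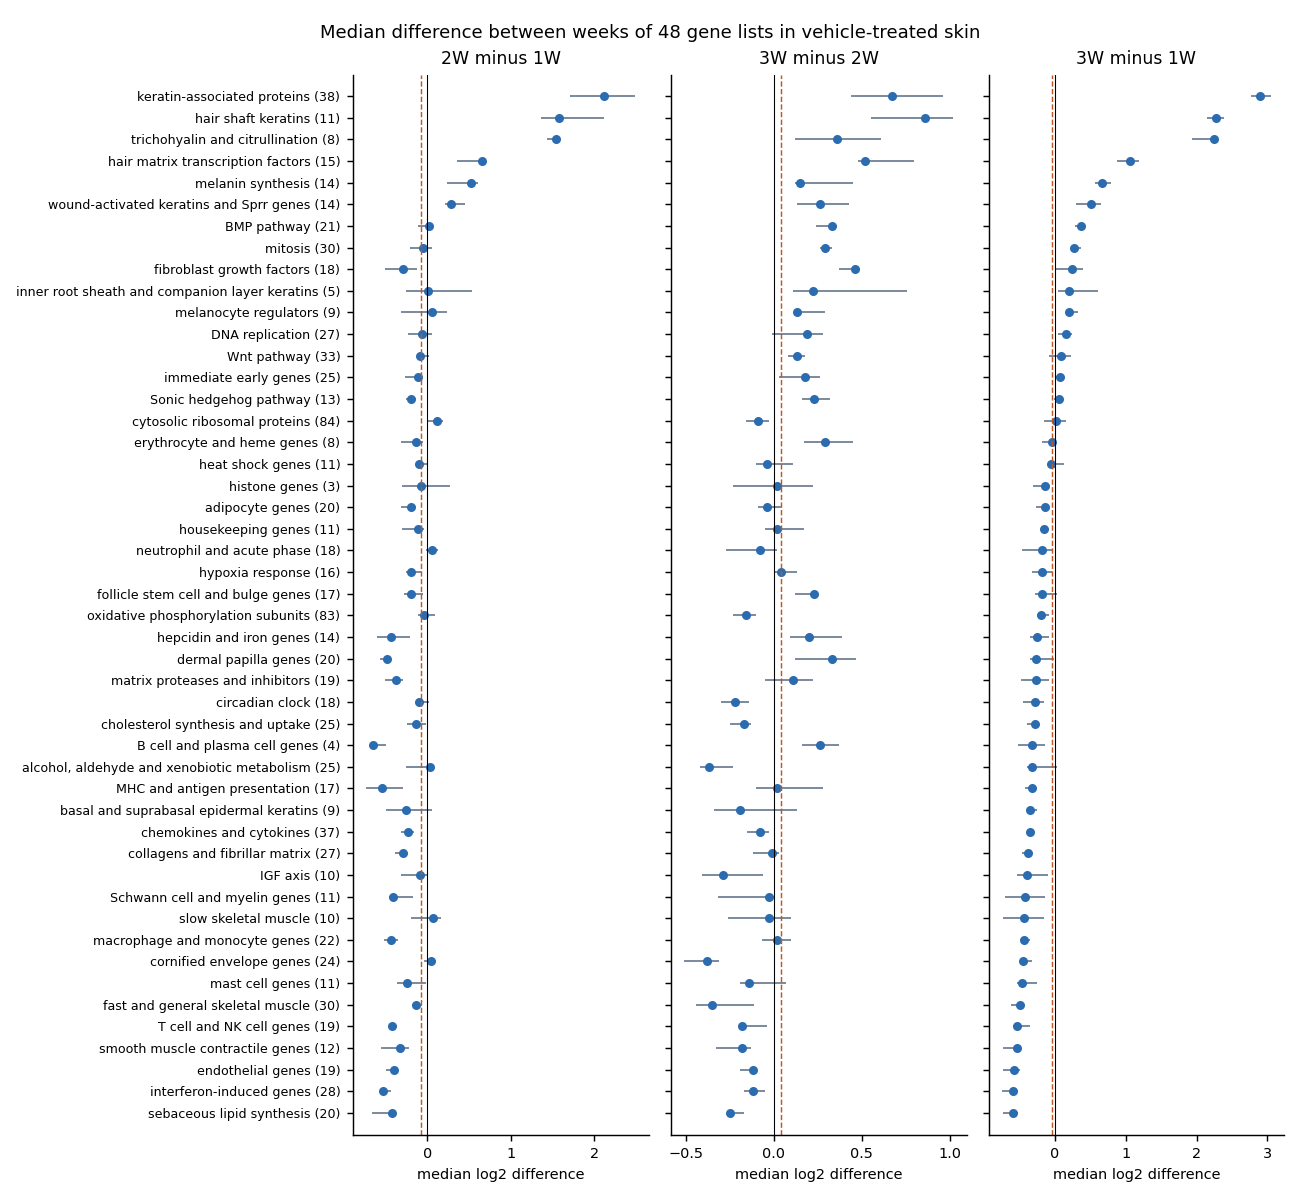
Median log2 difference between weeks (horizontal axes, a scale for each panel) of the 48 gene lists, with the number of measured genes in brackets; points are the medians of the averaged differences, lines span the medians of the 4 matched readings and are drawn out to the point, and the dashed line is the median of all probes. At 3W against 1W the hair shaft lists lie between 2.25 and 2.90, and sebaceous and interferon-induced genes lowest at -0.60 and -0.59.

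Among all named genes above background in both weeks, the 8 largest rises from 1W to 2W were those of Olfr1134 (5.29 ± 0.29), Krtap19-2, Krt84, Krtap19-4 (4.29 ± 0.22), Krtap15 (4.17 ± 0.06), Csn3 (3.91 ± 0.70), Prss3 (3.86 ± 0.35) and Spink12 (3.70 ± 0.13). At 3W against 1W, the 8 were Krt84, Olfr1134 (5.37 ± 0.36), Krtap31-1, Krtap19-2, Krtap31-2 (4.81 ± 0.11), Prss3 (4.74 ± 0.40), Spink12 (4.57 ± 0.29) and Csn3 (4.53 ± 0.59). Besides the shaft genes these are an olfactory receptor, a milk protein, a trypsin and a protease inhibitor. Olfr1134 read 8.55, 8.47, 8.97 and 8.75 at 1W and between 13.72 and 14.34 later. The 90 measured olfactory and vomeronasal receptors, a group formed after this was seen, had a median of 0.06 at 2W.

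The largest falls at 2W were those of Defb8 (-2.64 ± 0.28), a defensin, then Akr1c21 (-2.05 ± 0.24), Depp1, Sgpp2, Tnnt1, Mug1, Hamp2 and Aox1, the last with an SD of 2.53 against a difference of -1.78. Defb8 came back at 3W, with readings of 9.19 to 9.57 at 1W, 6.54 to 6.83 at 2W and 8.80 to 9.04 at 3W. With Hes5, Adamts9 and Ndp it makes up the 4 named genes, among those above background in every reading, that fell and then rose. With normexp Defb8 differed by -1.77 and 1.41 in the 2 steps. The others were under 2-fold in both, at -0.62 and 0.62 for Hes5, -0.42 and 0.46 for Adamts9 and -0.64 and 0.75 for Ndp. Ndufa12, Mup6, Csta2, Pitpnb and Dot1l led those that rose and then fell, and Mup6 stood at 7.19, 9.52 and 7.23. Such courses rest on the 2W pool alone, since both steps share it.

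For the ranks above and below, a gene stands by the probe that changed most. From 2W to 3W, Upk3bl (2.67 ± 0.23), Kdsr, Slc12a1, Tox3, Defb8, Foxc2 (2.16 ± 0.10), Thbs1 (2.03 ± 0.24) and Map2k7 rose most. Thbs1, thrombospondin, stood at 7.72, 8.33 and 10.37. The largest falls were those of Ddx25 (-3.21 ± 0.13), Snord33 (-3.07 ± 0.36), Snora52, Rmrp (-2.86 ± 0.21), Col1a1 (-2.55 ± 0.07), Cyp2g1 (-2.32 ± 0.08), Ndufa12 and Mup6. From 1W to 3W, Cyp2g1 (-2.83 ± 0.13), Snord33, Snora52, Rmrp, Scd3, Col1a1, Acoxl (-2.28 ± 0.28) and Glul (-2.27 ± 0.42) fell most. In these ranks and the courses through 2W, the brightest probes of Kdsr, Map2k7, Col1a1, Ndufa12, Glul and Pitpnb were not called in any comparison (-0.10 ± 0.17 for Kdsr, 0.54 ± 0.15 for Map2k7 and -0.16 ± 0.17 for Ndufa12 from 2W to 3W, and -0.58 ± 0.16 for Glul from 1W to 3W), and that of Adamts9 was not called at 2W. Snord33, Snora52 and Rmrp are structured RNAs that carry no poly(A) tail in mature form.

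The course of Col1a1, type I collagen, differed among its 3 probes along the gene. The probe at chr11:94799277-94799336 (mm9), 13.8 kb before the last one in genomic distance, stood at 14.45, 14.71 and 12.16. The probe at chr11:94812052-94812111 stood at 15.29, 15.04 and 14.52, and the one nearest the 3′ end at 16.10, 16.23 and 15.67. From 2W to 3W they differed by -2.55 ± 0.07, -0.52 ± 0.22 and -0.56 ± 0.13, so that only the most 5′ probe fell. The first and second of these probes are printed in this order because they target the same transcript and gave different results:
Col1a1: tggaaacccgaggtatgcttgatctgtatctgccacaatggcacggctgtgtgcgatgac
Col1a1: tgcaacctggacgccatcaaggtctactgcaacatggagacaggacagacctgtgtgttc

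The 9 probes of titin (Ttn), a very long muscle transcript, also differed, between -0.31 and -2.26 from 2W to 3W. Across genes with several bright probes, the most 5′ probe fell by at least 2-fold more than the most 3′ probe in 107 of 965 genes (11.1%) with probes 20 to 500 kb apart from 2W to 3W, and the reverse held in 14 (1.45%). From 1W to 2W the shares were 2.28% and 3.63%, and for probes 0.2 to 1 kb apart from 2W to 3W 0.957% and 2.39%. Between MXD and N-CE arrays of the 3W pool they were 3.52% and 1.76%. The differences of 3W thus depended on where in a gene a probe lies and what part this had in the other differences of 3W was not tested. With the probe nearest the 3′ end of each gene, the BMP pathway median from 2W to 3W was 0.12 in place of 0.33, and that of Schwann cell genes from 1W to 3W -0.59 in place of -0.43. The hair shaft keratins and keratin-associated proteins bear little on this, since 2 of 11 and 2 of 38 genes had another probe.

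Probes of the same gene agreed in part. Of the 709 other probes of genes with a probe that rose at 2W, 17.5% were called the same way, 2 were called the opposite way and 62.1% had the same sign. From 1W to 3W the same call was found in 39.5% of 582 probes for rises and 20.8% of 894 for falls. Of the calls, 121 at 2W against 1W, 176 at 3W against 2W and 264 at 3W against 1W had a week with no reading well above background.

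The treated pools were read on the same arrays and are given side by side, with no test and each as 1 pool. Relative to the 1W VC pool, the hair shaft keratins stood at 0.58 in the MXD pool and -2.25 in the N-CE pool at 1W. At 2W they stood at 1.65 in VC, 2.70 in MXD and 2.07 in N-CE, and at 3W at 2.31, 2.56 and 2.41. For these keratins VC had the lowest mean of the pools at 2W and 3W but not at 1W. At 2W the VC readings (1.36 to 2.05) overlapped with those of N-CE (1.96 to 2.19). Melanin synthesis genes at 3W stood at 0.70 in VC, 1.40 in MXD and 1.16 in N-CE.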

How the data were processed

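Labelled cRNA was hybridized to 44K whole mouse genome arrays, and the authors deposited one Agilent Feature Extraction file per array, with background-subtracted and dye-normalized intensity for each dye (version 12.0.3.1 in the file headers and 11.0.1.1 in the submitters' processing notes). The value table of the series holds log ratios of treated to control skin, from which no VC level can be taken, and was not used. Control spots and outlier spots were left out, with 0 saturated spots and 247 probes losing a reading to outlier marks. The log2 processed signal of the 12 VC channels was quantile normalized within each dye (6 channels each), spots of a probe were averaged, and the 2 dyes were weighted equally. Python 3.11.15, numpy 2.4.6 and pandas 2.3.3 were used, with limma 3.58.1 (R 4.3.3) for normexp. The code was tested on simulated data.

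A week with no reading well above background gives a bound, written as "at least", against the dimmest signal well above background. The bound belongs to the processed signal, and the difference with normexp can be smaller than it. In the gene lists a gene is represented by its brightest tested probe, and in the ranks of largest changes by the probe that changed most. Symbols came from RefSeq accessions for 27816 of 41174 probes and from the files otherwise. The number of arrays limits the precision. The named genes are the 8 largest called rises and falls of each comparison among genes well above background in both weeks, up to 4 leading members and the defining members of each of 48 gene lists, and the 5 largest peaks and troughs at 2W; a few others were named after their values were seen. The members and lists were chosen with earlier results of these data known. The alternatives were the normalization, background correction, fold threshold, filter, dye, array, outlier marks, probe of a gene and each reading left out.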

Additional observations from a re-analysis of the deposited data

Results flagged for a closer look

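In 12 of 144 groups of 4 readings (48 lists in 3 weeks), 1 reading's list median stood apart, by the gap to its nearest neighbour over the range of the group. Chance flags about 1 in 20 groups. At 1W this ratio was 0.877 for the inner root sheath keratins, where the Cy3 reading on the N-CE array was 0.16 and the others -0.24 to -0.19. The same reading gave 0.864 for antigen presentation (0.40 against 0.23 to 0.26) and 0.879 for housekeeping genes (0.14 against 0.04 to 0.05). Also at 1W it was 0.844 for the cornified envelope (Cy5, MXD array) and 0.888 for slow skeletal muscle (Cy3, MXD array).

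At 2W the ratio was 0.85 for the WNT pathway (Cy5, MXD array), 0.848 for stem cell and bulge genes and 0.923 for immediate early genes (both Cy5, N-CE array), and 0.931 for collagens (Cy3, N-CE array, -0.22 against -0.04 to -0.03). At 3W it was 0.916 for the WNT pathway and 0.947 for sebaceous lipid synthesis (both Cy5, N-CE array; the latter -0.38 against -0.25 to -0.24), and 0.877 for the BMP pathway (Cy3, MXD array). These gaps are small on the log2 scale, at most that between 0.16 and -0.19.

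From 2W to 3W the hair lists went up in every VC reading and down in every MXD reading. The hair shaft keratins differed by 0.56 to 1.00 in VC and by -0.28 to -0.23 in MXD, a difference between the pools of -1.07. For keratin-associated proteins it was -0.99, for trichohyalin and citrullination -0.96, for hair matrix transcription factors -0.91 and for melanin synthesis -0.52. With 1 pool for each group and week these differences were not tested.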

How the results depend on the processing

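All 249 called differences of named genes kept their side of 0 under the 8 alternatives run on single genes (normalization, background, dye, arrays, outlier marks) and with each reading left out. The call rule itself fixes this side for 1 dye alone, 1 kind of array alone and a reading left out. Only the normalization, background and outlier mark alternatives could have changed it. The filters and the choice of probe were not run on single genes, and the probes of Ptch1 differ in sign at 2W. All 23 list medians of at least 0.5 in size kept their side of 0 under the alternatives run on lists. Normexp moved 89 of the 249 by over 1.5 times. The numbers of calls depended on the setting, given here as rises/falls for 2W against 1W, then 3W against 2W, then 3W against 1W where they moved by over 1.5 times. They were 1977/1725, 1569/1865 and 2185/2991 at 1.5-fold. With normexp they were 391/52, 75/200 and 453/227. On the N-CE arrays alone they were 2234/822, 664/1402 and 1777/1456, and on the MXD arrays 1249 probes fell from 2W to 3W. In Cy3 alone 574 fell at 2W, and 671 rose and 1248 fell from 2W to 3W, where 672 rose in Cy5 alone. Among probes above background in every reading, 132 fell at 2W, 178 rose and 400 fell from 2W to 3W, and 465 fell from 1W to 3W. With no filter 460 fell at 2W, 881 rose from 2W to 3W and 1549 rose from 1W to 3W. With 1 reading left out, rises and falls ranged over 734 to 1333 and 260 to 443 at 2W, 381 to 546 and 699 to 1208 from 2W to 3W, and 974 to 1141 and 943 to 1085 from 1W to 3W. With fewer readings the call rule sets fewer conditions, so the counts for 1 dye, 1 kind of array or a reading left out are reached more easily than the main ones. The hair shaft keratin median from 1W to 3W was 2.15 with 75th percentile scaling and 2.38 on the N-CE arrays. That of keratin-associated proteins was 2.69 with the percentile and 3.04 in Cy5, and 2.49 in Cy5 at 2W. The probe nearest the 3′ end, an alternative chosen after seeing the data, gave 0.06 in place of 0.36 for trichohyalin and citrullination from 2W to 3W. Of all list values under these settings 211 of 1728 moved by over 1 SD. The cause of these shifts was not tested. No paired analysis was possible because each week is 1 pool and no pool was followed across weeks.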

Other observations

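Small nucleolar and other structured RNAs, a group formed after the values were seen, had 7 measured members (Rmrp, Snora3, Snora52, Snora69, Snord33, Snord35b and Terc). Their median was 0.25 at 2W with none called, and -0.68 from 2W to 3W with 3 called lower and a range of -3.07 to 0.04. Of the 90 measured olfactory and vomeronasal receptors, 14 were called higher and 3 lower from 1W to 3W, with a median of 0.12. Over all probes 3.79% rose and 3.75% fell in that comparison. A receptor could be measured through 1 bright week alone, and how many of the called ones were below background at 1W was not counted.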
